A study of Mus musculus with 12 samples.

Results

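Neutrophil granule genes were followed in mouse bone marrow-derived macrophage cultures on the way to osteoclasts. The 10 genes, out of 16570 in the deposited table, were taken by symbol from a list of proteins that granulocyte precursors make. They are Elane, Mpo, Prtn3 and Ctsg of the primary granule, Camp, Ngp and Ltf of the specific granule, the secreted lectin gene Fcnb, and S100a8 and S100a9, whose products form the cytosolic complex calprotectin. All 10 had whole-number counts in every library, and all 10 passed the filter on low counts, which left 12168 genes.

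The cells came from the bone marrow of C57BL/6J mice. Mononuclear cells of the marrow that had not adhered overnight were grown into macrophages with M-CSF, the survival factor of macrophages. Every group then had M-CSF at 50 ng/mL for 2 days, and 3 of the 4 groups also had RANKL, the cytokine that drives osteoclast formation, at 100 ng/mL. Of these 3, one had RANKL alone, one also had 1 µM BMS309403, which is known to block FABP4, a carrier of fatty acids, and one also had 1 µM RHC80267, which is known to block diacylglycerol lipase. The labels conflict on the time with RANKL, since the growth protocol has 4 days, and the 2 days of the treatment labels and the design text are used here. Each group held 3 libraries. Their labels name no separate animals or cultures, so the p-values speak of the spread among these libraries alone, and that spread may be technical. No inhibitor was given without RANKL, and no solvent control is named.

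Neutrophils are made in the bone marrow in steps, and each step fills its own kind of granule. The promyelocyte makes the primary, or azurophil, granule with its serine proteases and myeloperoxidase. The later myelocyte makes the specific granule with lactoferrin, cathelicidin and neutrophilic granule protein. The RNAs of these proteins are mostly made in the precursors and fall as the neutrophil matures, while S100a8 and S100a9 RNA stays high into the mature cell and is also made by monocytes. In bulk RNA, fewer cells of a type and less RNA per cell cannot be told apart.

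The genes sit in part side by side. Prtn3 (gene 19152, proteinase 3; GRCm38 chromosome 10, 79879667 to 79883174) lies 3138 bases before Elane (gene 50701, neutrophil elastase; chromosome 10, 79886312 to 79888216). S100a8 (gene 20201; chromosome 3, 90669071 to 90670034) and S100a9 (gene 20202; chromosome 3, 90692630 to 90695721) are 22596 bases apart. Camp (gene 12796; 109847377 to 109849456), Ngp (gene 18054; 110419808 to 110423012) and Ltf (gene 17002; 111019292 to 111042766) are all on chromosome 9, with other genes between them. Mpo (gene 17523) is on chromosome 11, 87793784 to 87804412, Ctsg (gene 13035) on chromosome 14, 56099885 to 56102574, and Fcnb (gene 14134) on chromosome 2, 28076479 to 28084910.

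The promoters of 4 of these genes are shown because the genes followed different patterns in the cultures. Elane and Prtn3 are the neighbours that fell with RANKL, Ngp is the most abundant specific granule gene per length, and Fcnb had the lowest fold change with RHC80267. Each runs 5′ to 3′ along the gene from 250 bases before to 50 bases after a start given by RefSeq on GRCm38.p6. For 9 of the 10 genes that start is the gene's own outer end, and for Fcnb it is at 28084878, 32 bases inside it. Capitals mark matches on either strand to simple motifs of factors that are known to act in granulopoiesis, namely C/EBP (TTGCNNAA), ETS (GAGGAA, a form bound by PU.1), RUNX (TGTGGT) and MYB (TAACNG), and to the TATA box (TATAAA).
Elane promoter, chr10:79886062-79886361, plus strand: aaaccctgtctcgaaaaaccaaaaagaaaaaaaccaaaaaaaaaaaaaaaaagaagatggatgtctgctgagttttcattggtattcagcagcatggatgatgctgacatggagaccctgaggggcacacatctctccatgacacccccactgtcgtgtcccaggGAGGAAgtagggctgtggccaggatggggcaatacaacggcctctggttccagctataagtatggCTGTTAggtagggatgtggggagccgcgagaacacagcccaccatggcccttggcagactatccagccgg
Prtn3 promoter, chr10:79879417-79879716, plus strand: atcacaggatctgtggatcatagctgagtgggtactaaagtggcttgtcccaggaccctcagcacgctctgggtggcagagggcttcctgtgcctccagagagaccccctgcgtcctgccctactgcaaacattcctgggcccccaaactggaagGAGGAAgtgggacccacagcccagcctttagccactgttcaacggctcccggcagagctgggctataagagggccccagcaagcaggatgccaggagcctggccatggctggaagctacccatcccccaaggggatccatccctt
Ngp promoter, chr9:110419558-110419857, plus strand: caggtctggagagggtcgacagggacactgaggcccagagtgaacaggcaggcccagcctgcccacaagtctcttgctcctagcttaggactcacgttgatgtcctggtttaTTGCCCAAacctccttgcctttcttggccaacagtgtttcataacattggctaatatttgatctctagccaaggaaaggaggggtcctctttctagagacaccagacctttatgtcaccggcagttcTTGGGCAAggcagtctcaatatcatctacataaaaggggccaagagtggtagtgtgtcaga
Fcnb promoter, chr2:28084829-28085128, minus strand: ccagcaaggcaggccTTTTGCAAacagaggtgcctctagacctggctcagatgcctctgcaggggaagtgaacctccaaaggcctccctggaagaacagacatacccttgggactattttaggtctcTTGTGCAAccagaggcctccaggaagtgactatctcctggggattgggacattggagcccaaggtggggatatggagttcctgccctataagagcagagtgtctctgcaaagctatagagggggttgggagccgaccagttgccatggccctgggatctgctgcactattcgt

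The Elane promoter held an ETS match 85 bases before the start and a MYB match 20 bases before it, and the Prtn3 promoter held an ETS match 95 bases before the start. Ngp held C/EBP matches 138 and 11 bases before the start, and Fcnb held them 235 and 123 bases before the start at 28084878. All 4 primary granule genes had an ETS match, as did Ltf and S100a8, which makes 6 of 10 against 28.3% of 32851 promoters of the same length. C/EBP matches were in Fcnb, Ngp, Ltf and S100a9, 4 of 10 against 10.8% of promoters. RUNX matches were in Ctsg, Ltf and S100a9, 3 of 10 against 16.8%, and MYB matches in Elane and Mpo, 2 of 10 against 23.3%. The letters TATAAA matched in Ctsg, S100a8 and S100a9, 3 of 10 against 13.6%, at unlike places. The match was 30 bases before the start in S100a8, 237 bases before it on the other strand in Ctsg, and at the start itself in S100a9. Camp had no match to any of the 5 motifs. Positions are those of a match's first base, and no matches overlapped. A match is only a run of letters in this window.

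Total expected counts per library were 17760844 to 18344989. The cultures carried the RNA of their labelled cell type: summed over 12 macrophage markers the level was 47686 to 49778 CPM with M-CSF. All 12 osteoclast markers tested rose with RANKL, from a summed 175.0 to 200.5 CPM to 8544 to 10609 CPM. CPM here is the count scaled by the TMM-adjusted library total, and per-length levels are the authors' FPKM.

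The genes were listed as low in these cultures, and that held for some of them only. By mean FPKM over the 12 libraries, S100a8 ranked 23rd and S100a9 47th of 16570 genes, and Ngp ranked 213th. Camp, the cathelicidin gene, had 6.14% of genes above it and Ltf, the lactoferrin gene, 9.09%. The primary granule genes and Fcnb stood lower, with 23.9% (Elane) to 43.0% (Fcnb) of genes above them. In the RANKL libraries the per-length order was S100a8 at 3226 ± 429.6 FPKM, S100a9 at 2334 ± 217, Ngp at 593 ± 53.6, Camp at 117 ± 8.10 and Ltf at 77.6 ± 9.38 (SD, n = 3). Elane followed at 23.3 ± 0.820, Prtn3 at 20.01 ± 0.744, Mpo at 13.2 ± 0.684, Ctsg at 11.6 ± 0.711 and Fcnb at 10.6 ± 0.172 FPKM. The lowest count of any of the 10 genes was 25, for Fcnb in 1 RHC80267 library. Together the 10 genes took 0.108% to 0.157% of all counts with M-CSF and 0.145% to 0.167% with RANKL. Their share was 0.147% to 0.158% in the BMS309403 libraries and 0.0709% to 0.104% in the RHC80267 libraries.

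**Figure D1:**
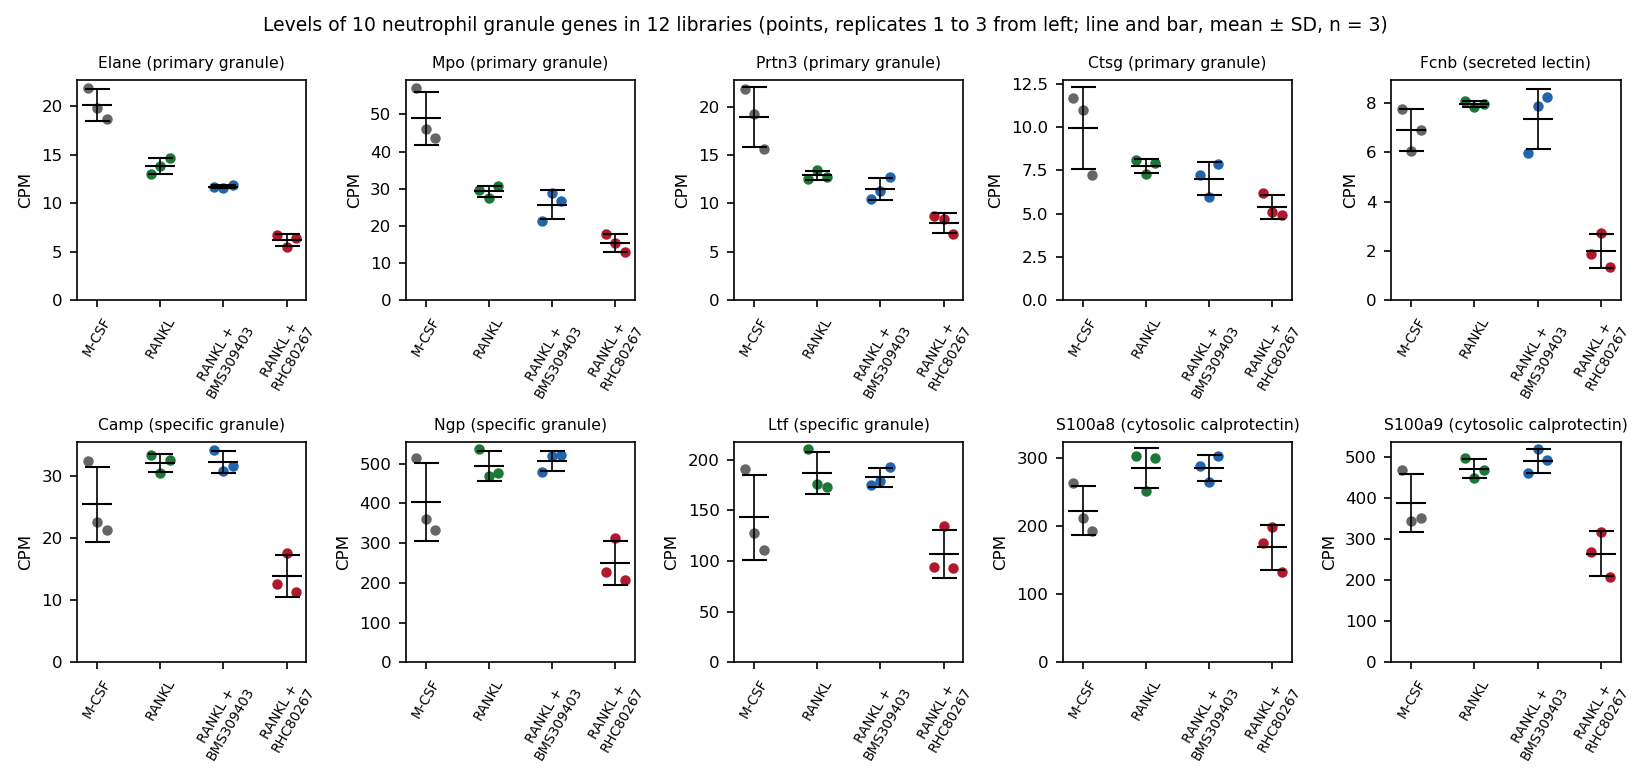
Levels in CPM of the 10 granule genes (1 panel per gene, vertical axes from 0) in the 4 groups, with points for replicates 1 to 3 and lines and bars for the mean ± SD (n = 3). The RHC80267 points sit below all RANKL points in each panel, and the means of the 4 primary granule genes are highest with M-CSF.

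Elane, the gene of the serine protease neutrophil elastase, was at 21.9, 19.8 and 18.7 CPM in the M-CSF libraries, 13.1, 13.8 and 14.7 in the RANKL libraries, 11.6, 11.6 and 11.9 in the BMS309403 libraries and 6.73, 5.50 and 6.41 in the RHC80267 libraries. No group overlapped the next in this order, from M-CSF down to RHC80267, and the mean with M-CSF was 3.24 times that with RHC80267. Mpo, which encodes the peroxidase of the primary granule, was at 57.1, 46.1 and 43.6 CPM in the M-CSF libraries, 29.7, 27.6 and 30.6 in the RANKL libraries, 21.3, 28.9 and 26.8 in the BMS309403 libraries and 17.7, 15.3 and 12.9 in the RHC80267 libraries. M-CSF was again highest and RHC80267 lowest, and the RANKL and BMS309403 libraries overlapped. Prtn3, the gene of proteinase 3, was at 21.8, 19.3 and 15.6 CPM in the M-CSF libraries, 12.6, 13.4 and 12.8 in the RANKL libraries, 10.5, 11.3 and 12.7 in the BMS309403 libraries and 8.72, 8.39 and 6.84 in the RHC80267 libraries. Its groups had the same order, with overlap between RANKL and BMS309403 alone. Ctsg, the gene of the protease cathepsin G, was at 11.7, 10.96 and 7.25 CPM in the M-CSF libraries, 8.09, 7.29 and 7.89 in the RANKL libraries, 7.21, 5.96 and 7.83 in the BMS309403 libraries and 6.19, 5.07 and 4.89 in the RHC80267 libraries. Its means kept that order, but each group overlapped the next.

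In the specific granule genes the order was another one. Ngp, the gene of neutrophilic granule protein, was at 516, 361 and 334 CPM in the M-CSF libraries, 537, 469 and 477 in the RANKL libraries, 478, 519 and 523 in the BMS309403 libraries and 228, 313 and 208 in the RHC80267 libraries. The RHC80267 libraries were lowest and overlapped no other group, while M-CSF, RANKL and BMS309403 overlapped through M-CSF replicate 1. Camp was at 32.4, 22.6 and 21.2 CPM in the M-CSF libraries, 33.3, 30.4 and 32.5 in the RANKL libraries, 34.2, 30.8 and 31.6 in the BMS309403 libraries and 12.6, 17.7 and 11.3 in the RHC80267 libraries. It had the same order and overlaps as Ngp. Ltf was at 191, 127 and 111 CPM in the M-CSF libraries, 211, 177 and 173 in the RANKL libraries, 175, 179 and 193 in the BMS309403 libraries and 93.96, 134 and 92.9 in the RHC80267 libraries. Here RHC80267 replicate 2 lay above M-CSF replicates 2 and 3, so that the 2 lowest groups overlapped.

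Fcnb, which encodes ficolin-B, a lectin of the complement system, was at 7.73, 6.04 and 6.91 CPM in the M-CSF libraries, 8.09, 7.84 and 7.95 in the RANKL libraries, 5.96, 7.86 and 8.23 in the BMS309403 libraries and 1.88, 2.72 and 1.36 in the RHC80267 libraries. The RHC80267 libraries stood apart below all others, at counts of 35, 50 and 25, and the other 3 groups overlapped, apart from RANKL and M-CSF. S100a8 was at 263, 212 and 193 CPM in the M-CSF libraries, 304, 252 and 300.2 in the RANKL libraries, 289, 264 and 303 in the BMS309403 libraries and 175, 199 and 133 in the RHC80267 libraries. The M-CSF libraries were between, overlapping RHC80267 and RANKL but not BMS309403. S100a9 was at 468, 344 and 352 CPM in the M-CSF libraries, 498, 449.7 and 468 in the RANKL libraries, 460.0, 519 and 492 in the BMS309403 libraries and 269.6, 317 and 207 in the RHC80267 libraries. RHC80267 was lowest without overlap, and M-CSF replicate 1 reached into the RANKL range.

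RANKL libraries were first set against M-CSF libraries, to read what differed with the cytokine. The primary granule genes fell and the specific granule and calprotectin genes rose, the rise being called by edgeR and not by DESeq2. By edgeR, 4 genes were lower and 5 higher of the 10, where 29.8% of all genes tested were lower and 31.4% higher, so the count itself is near the background. The split followed the kind of gene: 4 of 4 primary granule genes were lower, and 3 of 3 specific granule genes and both calprotectin genes were higher.

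Mpo fell most in this comparison, from 48.9 ± 7.15 to 29.3 ± 1.57 CPM (SD, n = 3), a log2 change of −0.74 ± 0.10 (SE, edgeR adjusted p = 1.39e-06). Elane changed by −0.54 ± 0.08 (SE, edgeR adjusted p = 3.25e-06) and its neighbour Prtn3 by −0.55 ± 0.10 (SE, edgeR adjusted p = 9.71e-05). Ctsg had the smallest fall, −0.36 ± 0.14 (SE, edgeR adjusted p = 0.0322). Elane, Mpo and Prtn3 did not overlap between the groups, and neither did 32.2% of all genes in the lower direction.

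Ltf rose by 0.38 ± 0.14 (SE, edgeR adjusted p = 0.0199), S100a8 by 0.36 ± 0.11 (SE, edgeR adjusted p = 0.00639) and Camp by 0.34 ± 0.12 (SE, edgeR adjusted p = 0.0205). Ngp rose by 0.29 ± 0.12 (SE, edgeR adjusted p = 0.0445) and S100a9 by 0.28 ± 0.11 (SE, edgeR adjusted p = 0.0270). Fcnb was not called, at 0.21 (95% interval −0.09 to 0.50, edgeR adjusted p = 0.216), although its libraries did not overlap, nor did those of 33.4% of genes in the higher direction. The 5 genes called higher all overlapped between the groups through M-CSF replicate 1, and without that library their log2 changes were 0.44 (S100a9) to 0.64 (Ltf). With DESeq2 0 of the 10 genes were called higher (1 at an unadjusted p under 0.05) and 3 lower, Ctsg being lost at an adjusted p of 0.0621. The number called higher was 0 without M-CSF replicate 3 and 1 without M-CSF replicate 2 or without RANKL replicate 1, and Ctsg was not called in 4 of the 6 fits that left out 1 library, with a log2 change of −0.24 without M-CSF replicate 1.

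**Figure D2:**
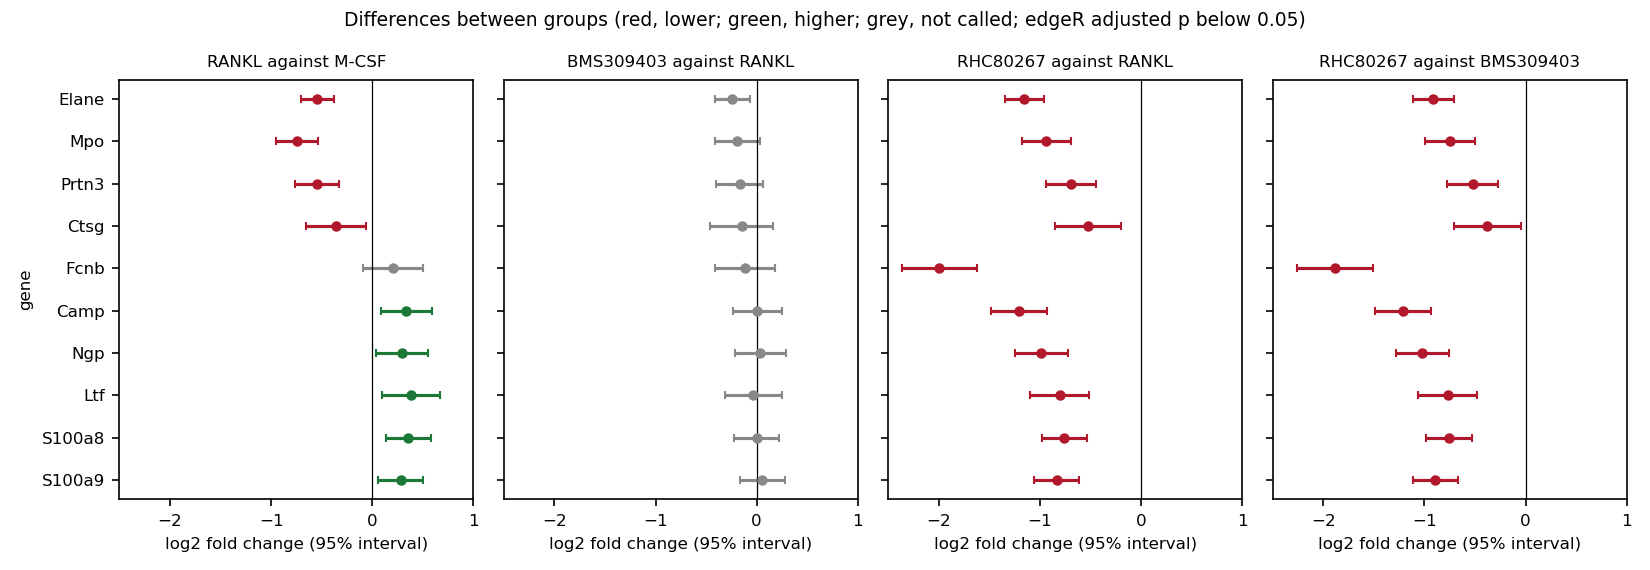
Log2 fold changes with 95% intervals of the 10 genes in the 4 comparisons (1 panel each, genes down the vertical axis), with red for lower, green for higher and grey for not called by edgeR. The primary granule genes lie left of 0 and the specific granule and calprotectin genes right of 0 with RANKL, and all 10 lie left of 0 with RHC80267.

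The balance between the 2 kinds of granule gene differed between M-CSF and the other groups. The summed CPM of Camp, Ngp and Ltf over that of Elane, Mpo, Prtn3 and Ctsg was 5.31 to 6.57 with M-CSF and 10.4 to 12.3 with RANKL, with no overlap. It was 12.6 to 13.6 with BMS309403, above RANKL, and 8.50 to 13.6 with RHC80267, which overlapped both. The ratio is not per length, so it serves to compare groups and not genes. Ngp over Elane, the genes of each kind with the most FPKM in the M-CSF and RANKL libraries, was 17.9 to 23.5 with M-CSF and 32.5 to 41.1 with RANKL. It was 41.1 to 44.8 in the BMS309403 libraries and 32.5 to 56.8 in the RHC80267 libraries.

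None of the 10 genes was called with BMS309403. Of all genes tested, 3.49% were higher and 3.74% lower with BMS309403 than with RANKL alone. The log2 changes of the 10 genes ran from −0.24 to 0.06 with a median of −0.07, beside −0.01 for all genes. Elane had the lowest, −0.24 (95% interval −0.42 to −0.06, edgeR adjusted p = 0.0976), at 11.7 ± 0.177 against 13.8 ± 0.801 CPM. It was the 1 gene of the 10 at an unadjusted p under 0.05, by edgeR and by DESeq2, and DESeq2 also called 0 of them.

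The other primary granule genes gave −0.19 for Mpo (−0.42 to 0.04), −0.17 for Prtn3 (−0.40 to 0.07) and −0.15 for Ctsg (−0.46 to 0.16). Fcnb gave −0.11 (−0.41 to 0.18). The specific granule genes gave 0.01 for Camp (−0.24 to 0.25), 0.04 for Ngp (−0.22 to 0.29) and −0.03 for Ltf (−0.32 to 0.25). S100a9 gave 0.06 (−0.17 to 0.28), and S100a8 lay at 285 CPM in both groups, with an interval of −0.22 to 0.22. All 10 intervals lay between −0.46 and 0.29. The interval of Elane left out 0, though the gene was not called after adjustment. Those of the other genes held 0, and a difference inside them could not be told from none.

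All 10 genes fell with RHC80267 relative to RANKL alone. The fall covered every kind, from the primary granule proteases to calprotectin, and in each of the 10 every RHC80267 library was below every RANKL library. Of all genes tested, 23.0% were lower and 26.9% higher, and 26.8% did not overlap in the lower direction. The log2 changes ran from −1.998 to −0.53 with a median of −0.89, beside 0.02 for all genes tested. The RANKL libraries also serve as the reference of the BMS309403 comparison and as the treated group of the comparison with M-CSF.

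Fcnb fell most, from 7.96 ± 0.124 to 1.99 ± 0.690 CPM, a log2 change of −1.998 ± 0.18 (SE, edgeR adjusted p = 6.87e-09). Its interval, −2.37 to −1.63, did not overlap that of any other of the 10 genes. Camp changed by −1.21 ± 0.13 (SE, edgeR adjusted p = 1.50e-07) and Elane by −1.15 ± 0.10 (SE, edgeR adjusted p = 1.83e-09). Ngp fell from 494 ± 37.3 to 249.6 ± 55.6 CPM, a log2 change of −0.99 ± 0.13 (SE, edgeR adjusted p = 1.23e-06).

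The others fell by less. Mpo changed by −0.94 ± 0.12 (SE, edgeR adjusted p = 1.05e-06), S100a9 by −0.84 ± 0.11 (SE, edgeR adjusted p = 1.65e-06) and Ltf by −0.80 ± 0.14 (SE, edgeR adjusted p = 6.38e-05). S100a8 changed by −0.76 ± 0.11 (SE, edgeR adjusted p = 6.08e-06) and Prtn3 by −0.69 ± 0.12 (SE, edgeR adjusted p = 5.61e-05). Ctsg had the smallest fall, −0.53 ± 0.16 (SE, edgeR adjusted p = 0.00794). All 10 stayed lower with DESeq2, under the other scaling and filters, and without any 1 library.

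**Figure D3:**
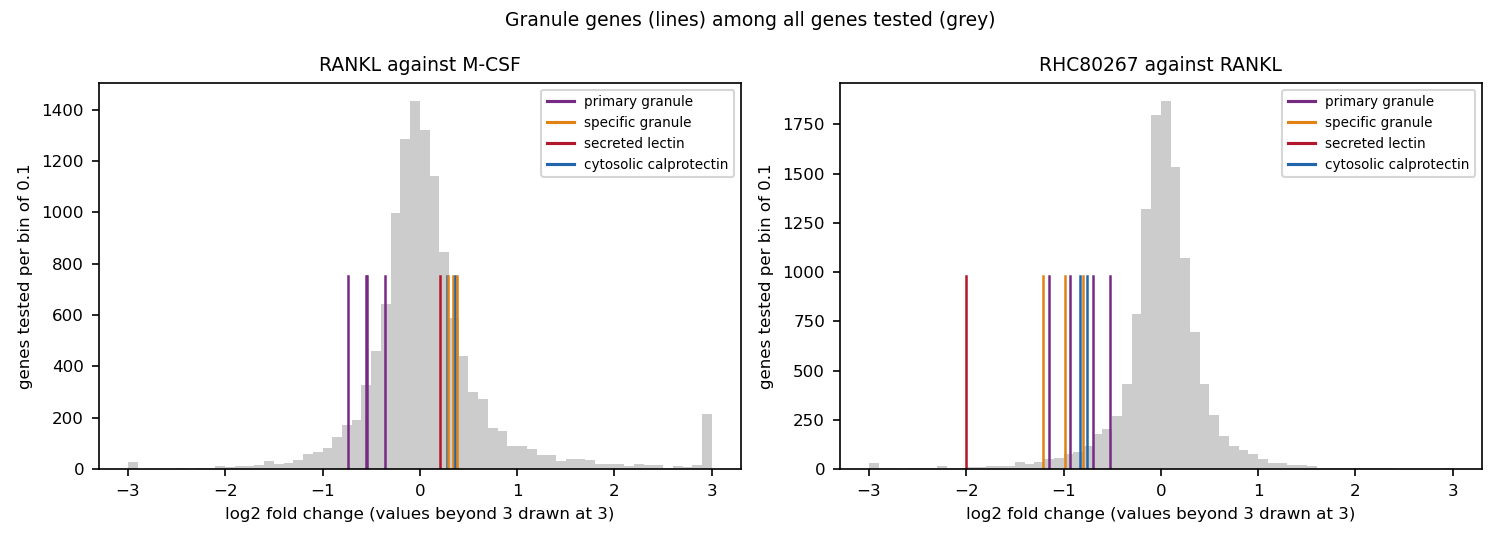
Histograms of the log2 fold changes of all 12168 genes tested (grey, bins of 0.1, values beyond 3 drawn at 3) in 2 comparisons, with a vertical line for each granule gene coloured by its kind. With RANKL the lines lie on both sides of 0, and with RHC80267 they lie between −1.998 and −0.53.

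Of 8 ratios between single genes, 4 had RHC80267 libraries outside the range of all other groups. Fcnb over Ngp was 0.00652 to 0.00871 with RHC80267 and 0.0125 to 0.0207 over the other 9 libraries. Elane over Prtn3, which are next to each other in the genome, was 0.656 to 0.937 with RHC80267, 1.03 to 1.15 with RANKL and 0.938 to 1.11 with BMS309403, in CPM. Ltf over Ngp was 0.412 to 0.446 with RHC80267 and 0.332 to 0.393 elsewhere, and Camp over Ngp was 0.0545 to 0.0564 and 0.0593 to 0.0716. S100a9 over S100a8, the 2 chains of one complex, was 1.54 to 1.59 with RHC80267 and overlapped with the other groups, at 1.56 to 1.96. Per length the ratio is turned, with S100a9 at 0.694 to 0.904 of S100a8 in FPKM.

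**Figure D4:**
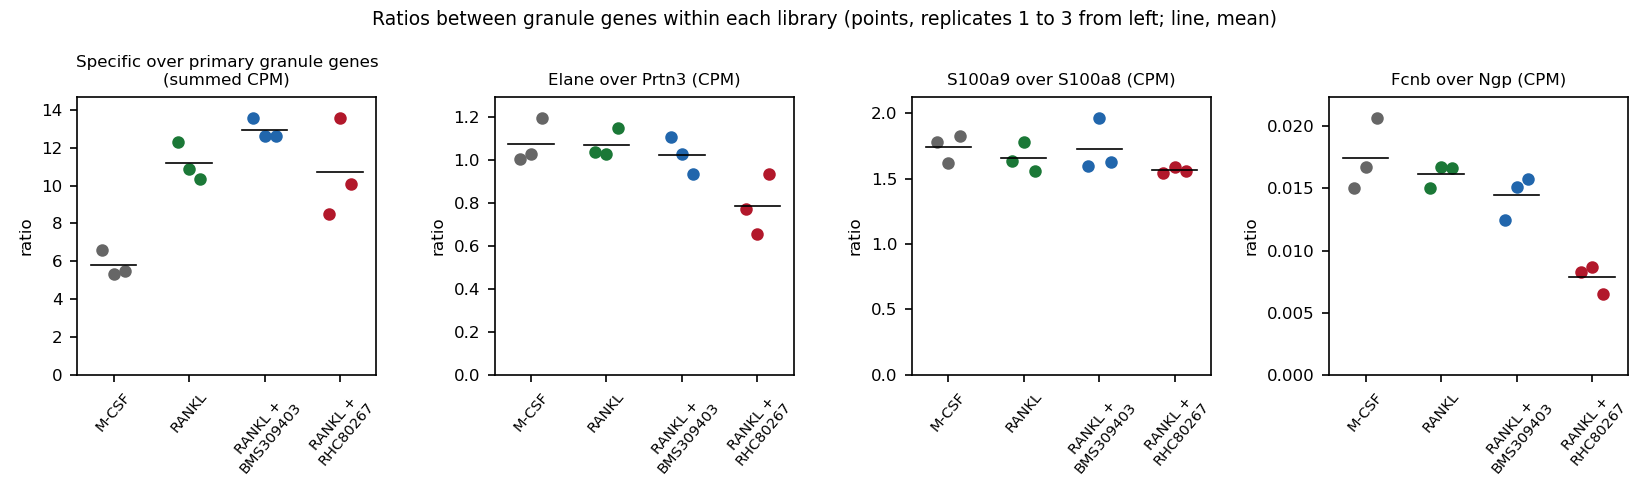
Ratios between granule genes within each library (vertical axis from 0, no unit) in the 4 groups, with points for replicates 1 to 3 and a line for the mean. The specific over primary ratio separates M-CSF from the rest, and the Fcnb over Ngp ratio is lowest in the 3 RHC80267 libraries.

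The inhibitor groups, both at 1 µM for 2 days, were also compared directly. All 10 genes were lower with RHC80267 than with BMS309403, where 25.5% of all genes were lower and 30.1% higher, and 9 of 10 did not overlap, against 28.5% of genes in that direction. Fcnb differed by −1.88 ± 0.18 (SE, edgeR adjusted p = 1.40e-08), Camp by −1.22 ± 0.13 (SE, edgeR adjusted p = 9.48e-08) and Ngp by −1.02 ± 0.13 (SE, edgeR adjusted p = 5.15e-07). The calprotectin genes differed by −0.89 ± 0.11 for S100a9 and −0.76 ± 0.11 for S100a8. Elane differed by −0.91 ± 0.10, Ltf by −0.77 ± 0.14, Mpo by −0.75 ± 0.12 and Prtn3 by −0.52 ± 0.12. Ctsg, which overlapped, differed by −0.38 ± 0.16 (SE, edgeR adjusted p = 0.0493), and was not called with DESeq2 (adjusted p = 0.0671) or in 4 of the 6 fits without 1 library.

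By median, the libraries of a group varied more in these genes than over genes at 5 CPM or more, mainly with M-CSF and RHC80267. The median coefficient of variation over the 10 genes was 17.2% with M-CSF and 20.4% with RHC80267, and 5.36% and 6.44% with RANKL and BMS309403. Over the 9840 genes whose mean reached 5 CPM the medians were 3.97% to 4.36%, and the levels of the 2 sets were not matched. Some of the 10 genes lay below these medians, such as Fcnb at 1.56% with RANKL and Elane at 1.51% with BMS309403. M-CSF replicate 1 had the highest level of all 10 genes, with a summed 1590 CPM against 1103 for the lowest M-CSF library. With RHC80267, replicate 2 was highest for Fcnb, Camp, Ngp, Ltf, S100a8 and S100a9, while replicate 1 was highest for the 4 primary granule genes.

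Genes whose levels ran most like each of the 10 over the 12 libraries were in part the others of the list. Camp was most like Ngp (Pearson r of log2 CPM 0.99 over 12 libraries in 4 groups), Olfm4 (0.99), the gene of a specific granule protein, and S100a9 (0.97). Ngp was most like Camp, S100a9 (0.98) and Olfm4 (0.98), and S100a9 like Ngp, Camp and Zfp655 (0.97). Ltf was most like Itgb2l (0.98), Ngp (0.97) and Chil1 (0.97), and S100a8 like Lsr (0.97), S100a9 (0.97) and Dgat2 (0.96). The primary granule genes had other companions: Mpo and Prtn3 were most like each other (0.98), followed by Sept6 and Clec4e for Mpo and by E2f2 and Sept6 for Prtn3, all at 0.97 to 0.98. Elane was most like Hmgcs1, Dgkh and Idi1 (all 0.99), of which Hmgcs1 and Idi1 encode enzymes of sterol synthesis. Ctsg was most like Ddx19a (0.95), Ccny (0.94) and E2f2 (0.93), and Fcnb like Plac8 (0.98), Ifi208 (0.97) and Casp1 (0.97). These values describe the order over 12 libraries that share 4 treatments.

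Other genes of the granules were read from lists. Each list count below stands beside the share of all genes tested. With RHC80267 against RANKL 23.0% were lower and 26.9% higher, and with RANKL against M-CSF 29.8% were lower and 31.4% higher. Of 12 other primary granule genes and their processing enzymes, 8 were lower and 1 higher with RHC80267 than with RANKL (median log2 change −0.30, beside 0.02 for all genes). Ctsc, the protease that activates the granule serine proteases, fell by 0.44 ± 0.04 on the log2 scale, Srgn, the proteoglycan core that packs them, by 0.54 ± 0.04 and Lyz2, a lysozyme gene that macrophages also express, by 0.41 ± 0.04. With RANKL 6 of the 12 were higher and 2 lower (median 0.17, beside 0.00 for all genes). Ctsc fell by 0.66 ± 0.04 and Calr, an endoplasmic reticulum chaperone, rose by 0.58 ± 0.03. Bpi, the gene of a bactericidal protein of the primary granule, had 0 counts in each M-CSF library and 25, 21 and 9 in the RANKL libraries, and was called higher.

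Of 16 other specific granule genes, 10 were lower and 1 higher with RHC80267 (median −0.37). The 1 higher was Chil3, from 291 ± 6.66 CPM with RANKL to 490 ± 93.3 CPM with RHC80267 (0.75 ± 0.11). Hp, Mmp8 and others were not called. Olfm4 fell by 1.26 ± 0.15 on the log2 scale, from 16.1 ± 1.45 to 6.74 ± 1.03 CPM. Itgam fell by 0.56 ± 0.03 and Cybb, the oxidase subunit gp91phox, by 0.62 ± 0.04, and both are also expressed in macrophages. With RANKL 6 of the 16 were higher and 3 lower (median 0.20), among them Anxa1 (1.64 ± 0.04), Cyba (0.43 ± 0.04) and Cybb (−0.59 ± 0.04).

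The gelatinase granule and secretory vesicle list went both ways, with 3 of 11 higher and 4 lower with RHC80267 (median −0.16). That is beside 26.9% higher and 23.0% lower of all genes tested, so the counts are near the background. Mmp9, the gelatinase that osteoclasts also make, rose by 0.93 ± 0.10, while Lyz1 changed by −0.40 ± 0.05 and Adam8 by −0.36 ± 0.05. With RANKL 5 were higher and 5 lower (median 0.27), with Mmp9 at 6.33, Fpr1, a receptor for formyl peptides, at −2.82 and Slc11a1 at −0.93.

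Among 11 tested genes of the list of transcription factors of granulopoiesis, 4 were lower and 2 higher with RHC80267 (median −0.07). That is beside 23.0% lower and 26.9% higher of all genes tested. Myb, a factor of the early precursors, fell by 1.03 ± 0.16 on the log2 scale, Cbfb, the partner of the RUNX factors, by 0.23 ± 0.04, and Cebpb rose by 1.32 ± 0.16. With RANKL 3 were higher and 5 lower (median −0.14), with Cebpa, needed for granulocyte commitment, at −0.73 ± 0.04. Per3 (−0.87) and Gfi1b (2.40) are also on the list, though Per3 is a clock gene and Gfi1b is known mainly from erythroid and megakaryocyte cells. Of 14 receptors and inhibitors of the granule proteins, 7 were lower and 0 higher with RHC80267 (median −0.25). Serpinb1a, an inhibitor of neutrophil serine proteases, fell by 0.81 ± 0.14, and Tlr4, a receptor for calprotectin, by 0.60 ± 0.04. With RANKL 7 were lower and 2 higher (median −0.42), and Slpi, an elastase inhibitor, fell by 1.74 ± 0.10. The list of other S100 genes had 7 tested, 6 of them S100 genes and 1, S100pbp, the gene of an S100-binding protein. With RANKL 4 S100 genes rose and S100pbp fell (median of the 7 genes 0.46), led by S100a4 (1.64 ± 0.06), S100a10 (1.02) and S100a11 (0.84), and 4 S100 genes fell with RHC80267 (median of the 7 genes −0.14), among them S100a6 (−0.47), S100a11 (−0.37) and S100a13 (−0.31).

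The same lists were read with BMS309403. Other primary granule genes gave 2 higher of 12, Ctsz (0.15) and Lyz2 (0.15), and other specific granule genes, transcription factors and S100 genes gave 0. Gelatinase and vesicle genes gave 2 higher and 1 lower of 11, and receptors and inhibitors gave 2 higher of 14. The medians of these 6 lists were −0.05 to 0.02. Over all 14 lists, markers of other cells included, 16 of 137 genes were higher and 12 lower with BMS309403, beside 3.49% and 3.74% of all genes tested, and without RANKL replicate 1 these counts were 6 and 7. Between the inhibitors, 65 of the 137 genes were lower and 26 higher with RHC80267, beside 25.5% and 30.1% of all genes tested.

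Markers of the cells that could carry granule RNA moved unequally. Of the 10 genes fixed as markers of granulocyte precursors, 7 are among the granule genes described above, and the other 3 are Ms4a3, Cebpe and Gfi1. Ms4a3, a gene of granulocyte-monocyte progenitors, had 105, 79 and 80 counts with M-CSF, 97, 60 and 59 with RANKL, 63, 57 and 60 with BMS309403, and 24, 31 and 26 with RHC80267. It fell by 1.44 ± 0.22 on the log2 scale with RHC80267. Gfi1, a repressor that granulocyte precursors need, fell by 1.69 ± 0.39, from counts of 40, 19 and 21 to 8, 10 and 7, and Cebpe, the factor of specific granule genes, by 0.57 ± 0.21. With RANKL, Cebpe rose by 0.56 ± 0.21, while Ms4a3 gave −0.31 ± 0.17 and Gfi1 −0.14 ± 0.30 and were not called.

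Of 11 granulocyte-monocyte progenitor markers, 7 were lower and 2 higher with RHC80267 (median −0.41), beside 23.0% and 26.9% of all genes tested. Their summed level was 1314 to 1405 CPM against 1235 to 1241 with RANKL. That sum includes F13a1, which macrophages also express and which rose by 1.02 ± 0.04. The other higher gene was Sox4 (0.55 ± 0.13), from 4.61 ± 0.381 to 6.74 ± 0.234 CPM. Kit, the stem cell factor receptor, fell by 1.05 ± 0.14 on the log2 scale. Of 10 mature neutrophil markers, 5 were lower and 0 higher (median −0.19), with a sum of 643 to 693 CPM against 834 to 859. Il1r2 fell by 1.48 ± 0.20, Clec4d by 0.55 ± 0.04 and Csf3r, the G-CSF receptor, by 0.25 ± 0.06. Ly6g, the defining surface marker of mature mouse neutrophils, was at 1.14 ± 0.345 CPM with RANKL and 1.19 ± 0.0471 with RHC80267, and Cxcr2, their chemokine receptor, at 11.01 ± 1.05 and 10.4 ± 1.10, and neither was called.

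Markers of other marrow cells also moved with RHC80267, where 23.0% of all genes tested were lower and 26.9% higher. Of 11 eosinophil, basophil and mast cell markers, 5 were lower and 0 higher (median −0.50), with a sum of 16.5 to 29.4 CPM against 36.7 to 46.2 with RANKL. Prg2, the major basic protein gene of eosinophils, went from 15.96 ± 0.533 to 2.12 ± 0.578 CPM, and Ear1 and Ear6, ribonuclease genes of eosinophils, changed by −2.02 and −2.52. The other 2 of the 5 lower genes, Prg3 (−2.41) and Siglecf (−1.02), are also eosinophil genes. The basophil and mast cell genes Mcpt8 (1.04 ± 0.48), Prss34 (0.50 ± 0.34), Ms4a2 (0.17 ± 0.28) and Cpa3 (0.12 ± 0.28) were not called. Mcpt8 had 3, 27 and 48 counts in the RHC80267 libraries. Ccr3 (−0.30 ± 0.14), from 11.5 ± 3.02 to 9.38 ± 1.15 CPM, and Gata2 (−0.50 ± 0.36) of this list were not called either. Of 8 erythroid and megakaryocyte markers, 6 were lower and 2 higher (median −1.79), with a sum of 139.7 to 142.8 CPM against 158 to 167. Itga2b fell by 1.90 ± 0.16 on the log2 scale, Ppbp by 1.80 ± 0.15 and Vwf by 1.16 ± 0.08. The 2 higher were Pf4, a platelet chemokine gene, from 79.4 ± 2.46 to 109 ± 2.03 CPM, and Epor, the erythropoietin receptor (1.13 ± 0.39). Of 5 lymphocyte markers, 4 were lower and 1 higher, with a sum of 8.90 to 10.8 CPM against 10.9 to 12.5, with Cd79a at −1.37.

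Stromal markers went the other way. Of 6 tested, 4 were higher and 0 lower (median 1.97), among them Col1a1, Col1a2 and Col3a1 (1.98, 2.01 and 2.19), and their sum was 15.8 to 67.8 CPM against 5.63 to 14.6. Replicate 1 was highest, with 392 Col1a1 counts against 112 and 87 in the other RHC80267 libraries. The RANKL libraries had 79, 21 and 46. No marker of these lists in the table was at 0 in all 12 libraries. All 12 osteoclast markers were also higher with RHC80267 than with RANKL, at a summed 16705 to 18854 CPM, and 10 of them were lower with BMS309403. Of the 12 macrophage markers, 5 were lower and 3 higher with RHC80267, 8 were higher with BMS309403 and 11 were lower with RANKL. The part of these cells in the change of the granule genes was not tested.

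**Figure D5:**
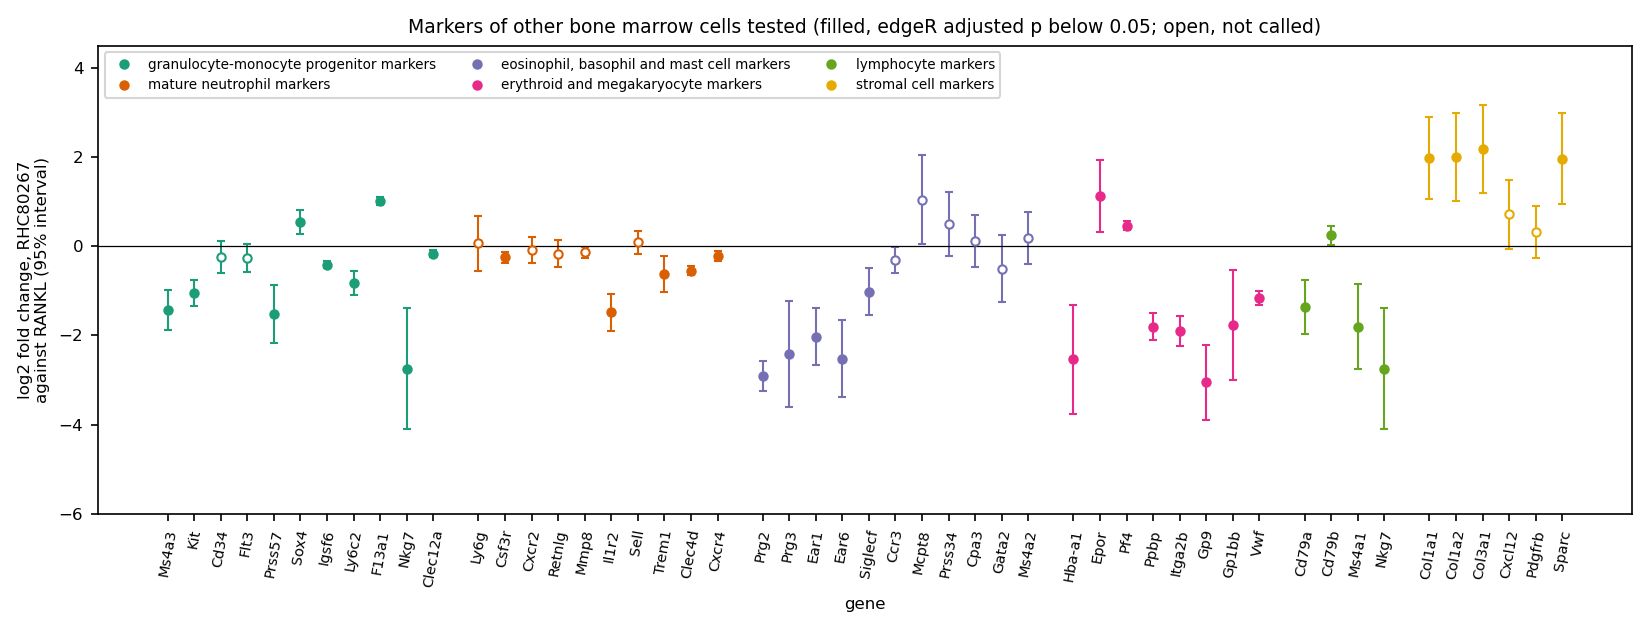
Log2 fold changes with 95% intervals, RHC80267 against RANKL, of tested markers in 6 lists of marrow cells (1 lymphocyte marker is not drawn; 1 point per gene, coloured by list, filled where called by edgeR). Prg2 of the eosinophil list, Itga2b of the megakaryocyte list and Ms4a3 of the progenitor list lie below 0, and the stromal collagen genes lie above 0; Nkg7 stands in both the progenitor and the lymphocyte list.

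With RANKL the same lists gave no single direction, where 31.4% of all genes tested were higher and 29.8% lower. Progenitor markers were 1 higher and 4 lower of 11, with a sum of 1235 to 1241 CPM against 1362 to 1516 with M-CSF, and Sox4 fell by 1.06 ± 0.12 on the log2 scale. Mature neutrophil markers were 3 higher and 5 lower of 10, with a sum of 834 to 859 CPM against 1166 to 1230. Much of that sum was Clec4d, from 645 ± 19.3 to 377 ± 8.50 CPM, and Csf3r, from 171 ± 14.3 to 109 ± 5.74 CPM, which both fell. The 3 higher were Il1r2 (1.05 ± 0.19), Retnlg (0.48 ± 0.15) and Cxcr2 (0.37 ± 0.15). Eosinophil, basophil and mast cell markers were 1 higher and 4 lower of 11. The 1 higher was Ccr3 (1.72 ± 0.17). Among the lower was Mcpt8 (−1.54 ± 0.45), the nearest gene to Ctsg on its lower side, 14386 bases away. Erythroid and megakaryocyte markers were 3 higher and 2 lower of 8, lymphocyte markers 2 lower of 5, and none of the 6 stromal markers was called. The primary and the specific granule genes among the 10 had opposite edgeR calls with RANKL, and the part of these cells in that was not tested. The lists of other primary and other specific granule genes did not split this way, with medians of 0.17 and 0.20.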

How the data were processed

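RNA was sequenced from 12 libraries of mouse bone marrow-derived macrophage cultures, 3 in each of 4 groups. The deposited table gives an expected count and an FPKM value (fragments scaled by transcript length and library size) per gene and library, made by the authors. Per the submitters' processing notes the tools were Bowtie2, RSEM 1.3.1 and DESeq2 1.4.5, with no role given. Expected counts were rounded, since 9.49% to 9.89% of values per library were not whole. The deposited counts of near-identical genes may be split by RSEM. The filterByExpr filter, set by group, removed 4402 of 16570 genes for low counts, libraries were scaled by TMM, and all 12 entered 1 edgeR 4.0.16 quasi-likelihood fit (R 4.3.3) that had no term but the group, leaving 8 residual degrees of freedom. A gene was called at a Benjamini-Hochberg adjusted p (2-sided) below 0.05 over the 12168 genes; only a called gene is said to have risen or fallen. Levels are CPM; levels of different genes are compared in the authors' FPKM.

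The 10 genes, the 14 lists (188 genes, 175 in the table, 137 tested, 10 in more than 1 list) and the tests were chosen with earlier results of these data known. The naming rule takes all 10 genes, up to 3 called genes per list and comparison with the smallest p (the higher group's mean being 1 CPM or more), and the 3 genes most like each of the 10 by Pearson r of log2 CPM (prior count 2). Genes named outside that rule, neighbours on the chromosome apart, were chosen after their values were seen. They were Ms4a3, Gfi1, Cebpe, Chil3, Hp, Mmp8, Ly6g, Cxcr2, Retnlg, Nkg7, Prg3, Siglecf, Prss34, Ms4a2, Cpa3, Gata2 and S100pbp. So were Sox4, Ccr3, Mcpt8, Pf4, Epor, Clec4d, Csf3r and Il1r2 where the rule did not take them. Values of 1 lymphocyte marker are not reported here. Positions and promoters are from RefSeq on GRCm38.p6, for 10 of 10 genes, with positions matched by gene identifier and promoters by symbol. For 9 of 10 the position in the deposited table was the same, and the entry of Mpo there spans another sequence. The alternatives were a fit with DESeq2 1.42.0, scaling by RLE, tests without a filter or with a stricter one (3 or more libraries at 1 CPM or more), a fit of the 2 groups alone, a replicate block, each library left out in turn and, for levels, library totals and FPKM. The counting of strand is not given in the sources used here.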

Additional observations from a re-analysis of the deposited data

How the results depend on the processing

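Of 240 log2 changes of the 10 genes under alternatives other than leaving out a library, 227 kept their direction and their side of the threshold, 7 lost the call and 6 changed sign. The 6 were S100a8 with BMS309403, near 0 in all: 0.0034 with DESeq2, 0.0029 with RLE factors, 0.0074 with no filter, 0.0055 with the stricter filter, 0.0037 with only the groups compared and 0.0018 with the replicate block. Of the genes called higher with RANKL, 5 became 0 with DESeq2, and the cause was not tested. Leaving out each library in turn gave 240 more changes, of which 210 held, 23 lost the call and 7 changed sign. The number called higher with RANKL was 0 to 5. For BMS309403 against RANKL, Ltf ranged from −0.086 to 0.063, S100a8 from −0.075 to 0.056, Camp from −0.037 to 0.042 and Fcnb from −0.19 to 0.018. In that comparison all genes called higher ranged from 152 to 473 and lower from 111 to 538, and list genes from 6 to 16 and from 7 to 13.

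Same-numbered libraries did not pair, since 0 of 18 pairs had a correlation of deviations over 0.1 (−0.092 to 0.0936). With the replicate block, 5 of the 10 genes were higher and 4 lower with RANKL, 0 were called with BMS309403 and 10 were lower with RHC80267. In FPKM the level of Elane with BMS309403 and that of Fcnb with RANKL, each as a share of the gene's sum over groups, moved by more than its SD. Fcnb counts of 25 to 50 in the RHC80267 libraries limit its precision there.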

Other observations

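The genes next to the granule genes on the chromosome went in both directions with RHC80267. Of 16 neighbours that are not among the 10 genes, 10 were tested, and with RHC80267 2 were lower and 2 higher than with RANKL alone. Of all genes tested, 23.0% were lower and 26.9% higher, so these counts are near the background. The 2 lower were Ccrl2, a chemokine receptor-like gene 12068 bases beyond Ltf (log2 change −0.53 ± 0.11, SE), and Cdc25a, a cell cycle phosphatase gene 26062 bases beyond Camp (−0.20 ± 0.07). The 2 higher were Col5a1, a collagen gene on the lower side of Fcnb (2.29 ± 0.51), and Klhl18, 2914 bases beyond Ngp (0.40 ± 0.06). With RANKL, 5 of the 10 were lower and 0 higher than with M-CSF, beside 29.8% lower and 31.4% higher of all genes tested. Plppr3, 4709 bases before Prtn3, changed by −0.56 ± 0.14 with RANKL, beside −0.55 for Prtn3 and −0.54 for Elane, and by 0.29 ± 0.15 with RHC80267, which was not called (edgeR adjusted p = 0.101). Cfd, 2637 bases beyond Elane, was below the filter, with a mean of 0 CPM in the M-CSF, RANKL and BMS309403 libraries.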
